A study of Rattus norvegicus with 6 samples.

Results

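The integrated stress response is the program by which cells under amino acid shortage, oxidative stress, misfolded protein or mitochondrial damage slow protein synthesis and turn on repair genes. Stress kinases phosphorylate the initiation factor eIF2, general translation falls, and the mRNA of the transcription factor ATF4 is translated more. ATF4, later joined by ATF3 and CHOP (the product of Ddit3), then raises genes for amino acid supply, for redox balance, for restraint of the growth kinase complex mTORC1 and for the dephosphorylation of eIF2 that ends the response, and in neural cells a lasting response of this kind is linked to cell death. Followed here are 10 genes of the program, Atf4, Atf3, Ddit3, Ppp1r15a, Trib3, Chac1, Asns, Sesn2, Ddit4 and Gdf15, found by gene symbol as 10 of the 17048 rows of the count tables. Each of them has 1 row, and no row repeats a symbol of the 10.

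The cells were neural stem/progenitor cells (NSPCs), multipotent precursors of neurons and glia, taken from the telencephalon of wild-type Sprague-Dawley rat embryos and kept in a medium that maintains stemness. They were cultured for 24 h on films of carbon nanotubes and graphene oxide nanoribbons that differed in electroconductivity through their degree of oxidation, namely “High” (above the range of tissue), “Medium” and “Low” (both near that of neural tissue), with 2 RNA-seq libraries per film and no culture without a film. Because the oxidation that lowers conductivity also changes the surface of the carbon, the films differed in more than conductivity. The study reported similar nano-roughness, hydrophilicity and stiffness across the films, and adjusted the poly-D-lysine coating so that laminin amounts were comparable. No label gives a batch, so film and library preparation cannot be told apart. Nothing in the labels says that the libraries of a film came from separate cultures, so the spread between them may be technical. Total counts were 5478066 and 5412882 on “High”, 5124863 and 5914540 on “Medium”, and 6213676 and 5460031 on “Low”, and 9566 rows were detected at all.

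The list of 10 was chosen with the differences of “Medium” and “Low” from “High” already known, so for those differences no p is given for the 10 genes and nothing is read from whether they passed a threshold. The comparison of “Low” with “Medium” is the one that was tested for them, although the “High” libraries share its filter, scaling and estimate of the spread. Levels are CPM, a count divided by the total of its library and multiplied by a fixed constant, after TMM normalization, a scaling that sets the bulk of genes equal between libraries, and group values are mean ± SD over 2 libraries. The deposited counts come from the 3′ ends of transcripts in bulk RNA, so fewer cells of a kind and less RNA per cell cannot be told apart. A row with 0 counts in a library was read as up to 3 counts, which is 0.435 to 0.716 CPM depending on the library, and this floor covers counting error only. Folds against a film whose libraries are all at or under the floor are given as lower bounds.

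The promoters of the 10 genes were looked up because several of them were low together on the same films, and because ATF4 and its partners bind known short elements. RefSeq windows of 300 bases (250 before the transcription start and 50 from it on, build GRCr8, which is not the build of the count tables) existed for 9 of the 10 genes. The core of the C/EBP-ATF response element, TGATGNAA on either strand, was found in the windows of Chac1 and Trib3 and in 3.98% of all 33469 rat windows. The cAMP response element TGACGTCA, which reads the same on both strands, was found in that of Ppp1r15a and in 1.83% of all windows, and the AP-1 site TGANTCA, also the same on both strands and not overlapping the other elements in these genes, in those of Ddit3 and Ppp1r15a and in 7.33% of all windows. The stretches below carry 1 match each, in capitals, and are written 5′ to 3′ on the strand of the gene. A match is only a description of these letters.
Chac1, chr3:126795944-126795991 of GRCr8, plus strand, 187 to 140 bases upstream of the start: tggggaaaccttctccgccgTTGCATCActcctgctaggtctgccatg
Trib3, chr3:161275534-161275574 of GRCr8, minus strand, 41 to 1 bases upstream: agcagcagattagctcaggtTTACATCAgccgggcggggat
Ppp1r15a, chr1:105139635-105139682 of GRCr8, minus strand, 86 to 39 bases upstream: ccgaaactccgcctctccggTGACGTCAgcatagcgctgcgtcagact
Ddit3, chr7:65001445-65001480 of GRCr8, plus strand, 250 to 215 bases upstream: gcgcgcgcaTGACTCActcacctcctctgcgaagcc
In Chac1 and Trib3 the element lies on the strand opposite to the gene and so appears as its reverse complement. The second match in Ppp1r15a, an AP-1 site, spans the transcription start and is not shown.

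All 10 genes had a higher mean level on “High” than on either other film, but the size of the difference ran from less than the spread between replicates to a complete absence of counts. Summed over the 10 genes, the level was 1891 and 1774 CPM on “High”, 370.4 and 1034 CPM on “Medium”, and 478.5 and 760.7 CPM on “Low”, so that neither “Medium” nor “Low” reached the lower “High” library. All 10 rows had counts in both “High” libraries, against 5 and 7 rows on “Medium” and 6 rows in each “Low” library. With libraries scaled by size alone, the mean of Atf4 on “Medium” was no longer under that on “High”, while the other 9 genes stayed lower on both films.

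**Figure D1:**
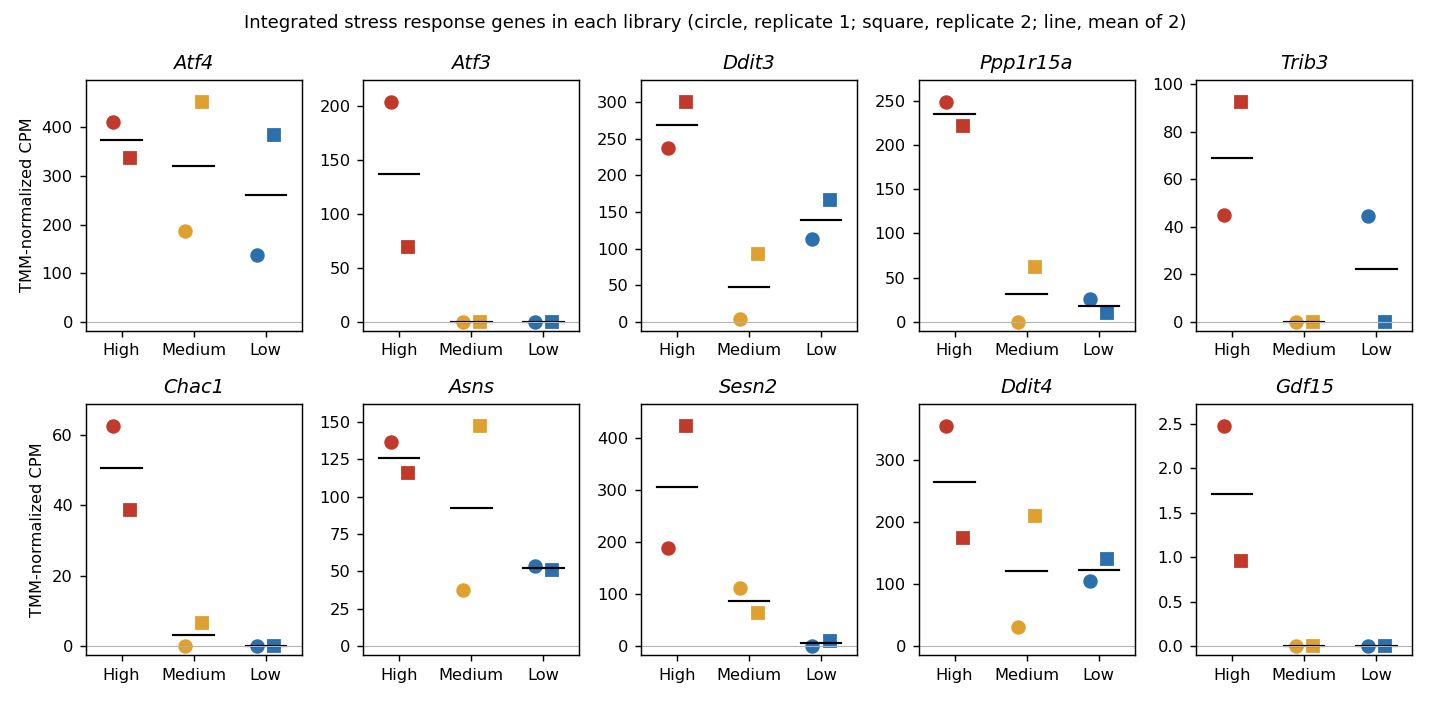
TMM-normalized CPM (vertical axes, a separate scale for each gene) of the 10 genes in the 6 libraries, by film; circles are replicate 1, squares replicate 2, and lines the mean of 2 libraries. Atf3 and Gdf15 were at 0 in all 4 “Medium” and “Low” libraries, while Atf4, Asns and Ddit4 overlapped between films.

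Of the transcription factors, Atf4 itself was the least different. It had 1992 and 1415 counts on “High”, 1087 and 2759 on “Medium”, and 941 and 2283 on “Low”. Its level was 374 ± 51.5 CPM on “High”, 320 ± 188 CPM on “Medium” and 260 ± 175 CPM on “Low”, and the highest of the 6 libraries was a “Medium” one. The fitted log2 difference of the mean of “Low” and “Medium” from “High” was -0.38 (SE 0.48), smaller than its standard error. ATF4 is controlled largely through translation of its mRNA, which these counts do not measure.

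Atf3, a bZIP factor induced by many stresses, was on the contrary detected on “High” and nowhere else. It had 991 and 291 counts in the “High” libraries and 0 in each of the 4 others. Against 137 ± 95.3 CPM on “High”, the level was at least 292-fold lower on “Low” and at least 272-fold lower on “Medium”. The “High” replicates themselves differed widely, at 204 and 69.4 CPM.

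Ddit3 encodes CHOP, a bZIP factor that promotes cell death when the response persists. Its counts were 1154 and 1260 on “High”, 21 and 565 on “Medium”, and 780 and 991 on “Low”. The means were 269 ± 44.4 CPM on “High”, 48.1 ± 63.0 CPM on “Medium” and 140 ± 37.7 CPM on “Low”, so “Low” stood between the others. Every “Medium” and “Low” library lay under both “High” libraries, and the log2 differences from “High” were -2.48 (SE 1.12) for “Medium” and -0.95 (SE 1.07) for “Low”.

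The feedback genes were among those with the wider gaps. Ppp1r15a encodes GADD34, the subunit that directs protein phosphatase 1 to eIF2 and so ends the response, and it had 1209 and 927 counts on “High”, 0 and 378 on “Medium”, and 181 and 62 on “Low”. Its level of 235 ± 19.8 CPM on “High” compares with 31.0 ± 43.8 CPM on “Medium” and 18.3 ± 11.2 CPM on “Low”, and no library off “High” passed 62.0 CPM. The log2 difference was -2.92 (SE 1.84) for “Medium” and -3.68 (SE 1.91) for “Low”. Since the study named Ppp1r15a among apoptosis genes on these same libraries, its direction is not independent evidence.

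Trib3, a pseudokinase that binds ATF4 and dampens it, had 218 and 388 counts on “High”, 0 in both “Medium” libraries, and 307 and 0 on “Low”. “Medium” was at least 137-fold lower than the 68.7 ± 33.7 CPM of “High”. In “Low” the gene rested on 1 library, at 44.5 CPM against 44.9 CPM in the lower “High” library, and with libraries scaled by size alone these values changed order, to 49.6 and 40.0 CPM. Whether the films overlap for Trib3 therefore depends on the scaling.

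Chac1, which degrades glutathione and is a frequently used readout of ATF4 activity, was nearly confined to “High” in these 6 libraries. It had 303 and 162 counts there, 0 and 40 on “Medium”, and 0 in both “Low” libraries. From 50.5 ± 16.8 CPM on “High” the level was at least 108-fold lower on “Low”. In “Medium” it was 3.28 ± 4.64 CPM, all of it from replicate 2.

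Asns encodes asparagine synthetase, the classic amino acid response gene, and showed a modest difference. It had 662 and 486 counts on “High”, 220 and 898 on “Medium”, and 371 and 302 on “Low”. Levels were 126 ± 14.5 CPM on “High”, 92.5 ± 77.4 CPM on “Medium” and 52.2 ± 2.16 CPM on “Low”. Both “Low” libraries lay under both “High” libraries, while the “Medium” replicates stood on either side of them.

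Sesn2 and Ddit4 encode sestrin 2 and REDD1, which restrain mTORC1 by separate routes. Sesn2 had 916 and 1774 counts on “High”, 646 and 388 on “Medium”, and 0 and 61 on “Low”, or 306 ± 166, 87.3 ± 33.4 and 5.12 ± 7.24 CPM. Its values formed 3 steps that did not overlap, with log2 differences from “High” of -1.81 (SE 1.39) for “Medium” and -5.90 (SE 1.67) for “Low”. Ddit4 had 1720 and 729 counts on “High”, 184 and 1278 on “Medium”, and 723 and 833 on “Low”, or 264 ± 128, 121 ± 126 and 122 ± 24.8 CPM. For Ddit4 a “Medium” library exceeded a “High” one, and the log2 difference was -1.13 (SE 0.82) for “Medium” and -1.11 (SE 0.82) for “Low”.

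Gdf15, a secreted stress cytokine, was barely detected. It had 12 and 4 counts on “High” and 0 elsewhere, did not pass the filter on low counts, and was therefore not tested in any comparison. The bounds were at least 3.65-fold lower on “Low” and at least 3.40-fold lower on “Medium”.

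Set side by side, the differences from “High” had a median of -1.74 for “Low” and -2.15 for “Medium” over the 10 genes on the log2 scale, with each library raised to the floor of 3 counts. Over all 7729 rows tested, the corresponding medians were 0.01 and -0.08. Gdf15, whose value is set by the floor, counts among the 10, and without it the medians were -1.61 for “Low” and -2.48 for “Medium”. Both comparisons use the same “High” libraries, so a high value there moves both. The genes differed in which film was lowest: Sesn2, Ppp1r15a, Chac1, Asns and Atf4 had their lowest mean on “Low”, Ddit3 and Trib3 on “Medium”, Ddit4 was equal on the 2 films within its spread, and Atf3 and Gdf15 were at 0 on both.

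**Figure D2:**
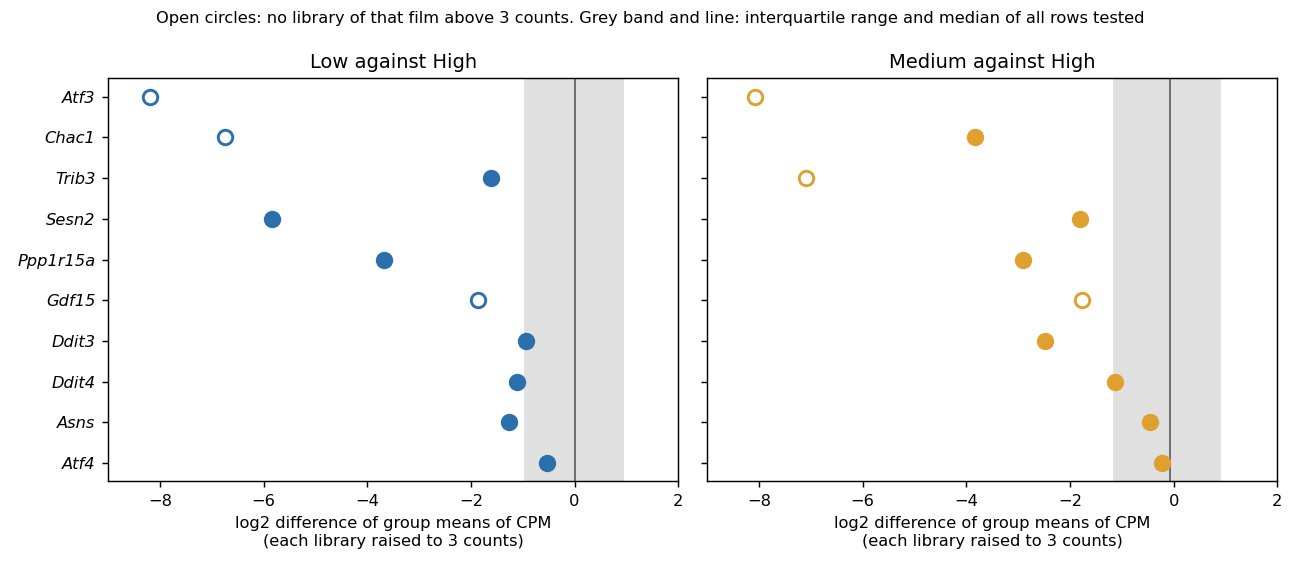
Log2 difference of group means of CPM from “High” (horizontal axis) for each of the 10 genes, “Low” on the left and “Medium” on the right, with each library raised to 3 counts; open circles are lower bounds on the size of the difference, the grey band is the interquartile range over all rows tested and the grey line their median. Atf3 lay at -8.19 and -8.09, and Atf4 at -0.53 and -0.23, inside the band on both sides.

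How unusual such values are in these libraries is given by the same counts over all rows. Of the 7729 rows tested, 781 (10.1%) had all 4 “Medium” and “Low” libraries under both “High” libraries, as did Atf3, Ddit3, Ppp1r15a, Trib3, Chac1 and Sesn2 of the 9 tested members and the untested Gdf15. The rule that the study used, which asks for a fold of 1.5 or more and a normalized value of 2 or more (required here of the group with the higher level, as its mean log2(CPM + 1)), was met downwards by 2324 rows (30.1%) on “Low” and 2538 rows (32.8%) on “Medium”, with 8 and 7 of the 9 among them. Nothing is read from these counts, because the genes were chosen by this contrast.

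The test behind calls was edgeR's quasi-likelihood test with an adjusted p under 0.05 over all rows. Against “High”, 7 rows (0.0906%) were called lower for “Low” and “Medium” averaged, for “Low” against “High” 4 rows (0.0518%) and for “Medium” against “High” 1 row (0.0129%), and none of the 10 genes was among them. On the same 7729 rows, DESeq2 called 291 in either direction for “Low”, Chac1 among them, and 307 for “Medium”, Trib3 among them. A fit with a replicate block called 57 rows for the average, with Atf3 and Sesn2, and 30 for “Low”, with Sesn2. For the average, no filter gave 68 calls of 9566 rows, with Atf3, Ppp1r15a and Sesn2. A mean count of at least 10 gave 56 calls of 8478 rows, with Atf3 and Sesn2. Nothing is read from these calls or from their absence.

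Replicates of a film disagreed for many genes, which bears on the zeros above. A row absent from 1 replicate yet at 50 or more counts in its partner from the same film occurred in 3005 of the 7729 rows (38.9%), and among the members in Ppp1r15a for “Medium” and in Trib3 and Sesn2 for “Low”. “Medium” replicate 1 had counts in 5355 rows, the fewest of the 6 libraries, against 7809 in “Medium” replicate 2, the most. Ddit3, Ppp1r15a, Chac1, Asns, Ddit4 and Atf4 were all lower in the former, and Sesn2 was higher. Without “Medium” replicate 2, the log2 difference of the mean of “Low” and “Medium” from “High” moved from -1.71 to -3.60 for Ddit3 and from -3.30 to -6.27 or lower for Ppp1r15a, the latter a bound because “Medium” was then at 0.

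Ribosomal RNA rows set the “High” libraries apart in the same direction as the stress genes. They took 26.1% and 38.4% of the counts on “High”, 7.27% and 13.0% on “Medium”, and 7.16% and 7.64% on “Low”. With those rows removed, all 10 genes were still lower on both films and the median log2 difference of the mean of “Low” and “Medium” from “High” was -2.56, the same as with them, since TMM scaling hardly changes when these rows go (all rows tested moved from -0.10 to -0.11). Rn45s, Rn28s and Rn18s were the ribosomal rows called lower with “Low” and “Medium” averaged, and the part of this share in the result was not tested.

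**Figure D3:**
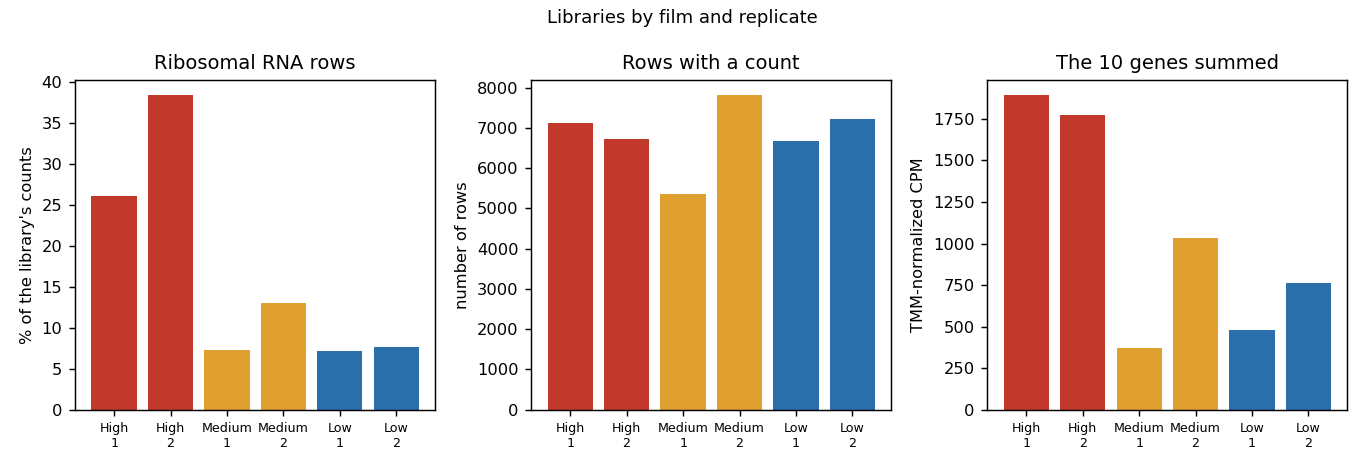
Share of counts in ribosomal RNA rows (%), number of rows with a count, and summed TMM-normalized CPM of the 10 genes, for each of the 6 libraries (bars, from 0). The “High” libraries had the largest ribosomal share and the largest sum over the 10 genes, and “Medium” replicate 1 had the fewest rows with a count.

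“Low” and “Medium”, both near the conductivity of neural tissue, were compared with each other to ask whether the program differed between them. No row of the 7729 (0%) was called by edgeR's quasi-likelihood test, 117 had an unadjusted p under 0.05, and DESeq2 called 118 rows with no member among them. With the filter, scaling and fit made on the 4 “Low” and “Medium” libraries alone, an alternative chosen after seeing the data, none of 7000 rows was called, 99 had an unadjusted p under 0.05, and 6 members (Atf4, Ddit3, Ppp1r15a, Asns, Sesn2 and Ddit4) passed the filter. The adjusted p of these 6 was 1 in edgeR's test with all libraries. Sesn2 was lower on “Low” by a log2 difference of -4.09 (SE 1.54, unadjusted p = 0.0241 in edgeR's test), with both “Low” libraries under both “Medium” libraries, but without the “High” libraries in the fit the SE was 2.56 and the unadjusted p = 0.158 in edgeR's test. On “Low”, Trib3 exceeded its “Medium” level at least 44.2-fold, from “Low” replicate 1 alone, and no p is given because it passed the filter only through its counts on “High”.

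The remaining members gave smaller or less certain differences. Ddit3 was higher on “Low” by 1.54 (SE 1.08, unadjusted p = 0.187 in edgeR's test) on the log2 scale, with both “Low” libraries above both “Medium” ones. Chac1, which also passed the filter only through “High”, was at least 6.99-fold lower on “Low”, from “Medium” replicate 2 alone. For Atf4 (-0.30, SE 0.56), Ppp1r15a (-0.76, SE 1.73), Asns (-0.82, SE 0.97) and Ddit4 (0.02, SE 0.81) the difference was smaller than its standard error, which does not show that the films were alike. Atf3 and Gdf15, at 0 on both films, give no value.

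Other genes of the pathway were read from lists of known members, beginning upstream. Of 13 eIF2 kinases, their regulators and subunits of the eIF2 phosphatase in the tables, all tested, none was called against “High” for “Low” and “Medium” averaged, and the list had a median log2 difference of -0.50 against -0.10 over all rows. Of the 13, 9 were lower, and the kinases themselves lay on both sides of “High”. Eif2ak1 was at 4.36, Eif2ak2 at -0.62, Eif2ak3 at -1.35 and Eif2ak4 at -2.36. Ppp1ca, a catalytic subunit that GADD34 recruits, had 410 and 203 CPM on “High”, 273 and 256 on “Medium”, and 173 and 258 on “Low”. The other catalytic subunits, Ppp1cb and Ppp1cc, had log2 differences of -0.25 (SE 0.54) and -0.90 (SE 0.53). The 10 subunits and partners of eIF2 and its exchange factor eIF2B had a median of -0.04 with none called, and Eif2s2, the beta subunit, stood at 3214 and 3019 CPM on “High” and 2040 to 2887 CPM on the other films. Eif2s3x, the gamma subunit, overlapped between films (log2 difference -0.08, SE 0.59). Eif2s1, the alpha subunit that the kinases phosphorylate, was at 161 and 185 CPM on “High” and at 207 to 507 CPM elsewhere (log2 difference 0.98, SE 0.47, adjusted p = 0.801 in edgeR's test).

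Of the partner factors of ATF4 and their regulators, 10 were tested and none was called, with a median of -1.04. Jun, a component of AP-1, had 458 and 313 CPM on “High” and 402 to 555 CPM elsewhere. Nfe2l2 encodes NRF2, the oxidative stress factor that shares targets with ATF4, and had 305 and 211 CPM on “High”, 8.41 and 101 on “Medium”, and 70.8 and 30.4 on “Low” (log2 difference -2.29, SE 0.86, adjusted p = 0.801). Trib2, a relative of Trib3, had a difference of 0.95 (SE 0.59), also without a call. Atf5 and Jdp2 were at 0 in all 6 libraries.

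Amino acid transporters, many of them ATF4 targets, had the lowest median of the 11 pathway lists. None of 9 tested was called, 4 had an unadjusted p under 0.05 on the lower side (217 of all 7729 rows), and the median log2 difference was -1.92, with 6 of 9 lower in all 4 “Medium” and “Low” libraries (781 of 7729). Slc3a2, the heavy chain of several exchangers, had 1156 and 576 CPM on “High”, 164 and 232 on “Medium”, and 245 and 150 on “Low” (log2 difference -2.13, SE 0.36, adjusted p = 0.0781). Slc7a11, the cystine carrier that pairs with it, had 327 and 481 CPM on “High” and 11.2 to 137 CPM elsewhere (-2.64, SE 0.81, adjusted p = 0.647). Slc1a5, a neutral amino acid exchanger and among the 3 most abundant of the list, had a log2 difference of -0.52 (SE 0.34). The summed level of the list was 2584 and 2366 CPM on “High” and between 711 and 963 CPM in the other 4 libraries. With “Low” and “Medium” averaged all 9 had a difference under 0, although Slc7a5 was above “High” on “Medium” alone (0.91). With libraries scaled by size alone, Slc7a5 was also above it when averaged and Slc6a9 on “Low” alone.

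The list of aminoacyl-tRNA synthetases, which load tRNAs and are also induced by ATF4, also holds Xpot, a tRNA export factor (log2 difference -2.76). Over the 13 genes tested, Xpot included, the median was -1.10 and none was called. On the lower side 3 had an unadjusted p under 0.05 in edgeR's test (217 of all 7729 rows). In all 4 “Medium” and “Low” libraries 5 were lower (781 of 7729). The median was -1.09 on “Low” and -0.42 on “Medium”, the latter -0.03 with libraries scaled by size alone. Aars, for alanine, had 559 and 441 CPM on “High”, 166 and 161 on “Medium”, and 174 and 180 on “Low”, with replicates close together (log2 difference -1.55, SE 0.32, adjusted p = 0.199). Gars, for glycine, was at 353 and 309 CPM on “High” and at 226 to 453 CPM elsewhere, so that the films overlapped. Eprs, for glutamate and proline, was lower by -1.10 (SE 0.49) with no call.

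The enzymes of serine, one-carbon and related amino acid metabolism lay on both sides of “High”, and their difference from the other lists was not tested. Over 13 tested the median was 0.16, 6 were lower, and none was called. On “Low” alone the median was -0.06 with 7 lower, and on “Medium” alone 0.19 with 4 lower. Phgdh, the entry enzyme of serine synthesis, had 110 and 101 CPM on “High”, 173 and 137 on “Medium”, and 121 and 213 on “Low”, higher in all 4 libraries off “High”. Psat1, the next step, had 87.1 and 92.3 CPM on “High”, 190 and 419 on “Medium”, and 47.4 and 124 on “Low”. Bcat1, which starts the breakdown of branched-chain amino acids, had a log2 difference of 0.16 (SE 0.38). These genes are textbook ATF4 targets along with Asns, and their summed level of 1058 and 987 CPM on “High” lay within the 973 to 1408 CPM of the other libraries.

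Among 16 other tested genes that ATF4 or CHOP can induce, 2 were called lower against “High” for “Low” and “Medium” averaged. Hmox1, heme oxygenase, had 5056 and 4711 CPM on “High” and 842 to 1173 CPM elsewhere (log2 difference -2.36, SE 0.19, adjusted p = 0.00168), and Cdkn1a, the cell cycle inhibitor p21, had 1607 and 1432 CPM on “High” and 446 to 682 CPM elsewhere (-1.51, SE 0.22, adjusted p = 0.0399). Hmox1 is better known as an NRF2 target and Cdkn1a as a p53 target. On the same 7729 rows, leaving out 1 library ended the call of Cdkn1a in each of 6 cases and that of Hmox1 without “High” replicate 2 or “Medium” replicate 1. With the filter refitted and so looser, both stayed called without any 1 library, so these calls depended on the rows tested. Scaling by library size alone ended the call of Cdkn1a (adjusted p = 0.156 in edgeR's test) but not that of Hmox1 (0.0245). The study had named both on these libraries, and Sqstm1 too, the autophagy receptor p62, which was at 1962 and 1946 CPM on “High” and 658 to 1129 CPM elsewhere (adjusted p = 0.0805). The median of the list was -1.02.

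**Figure D4:**
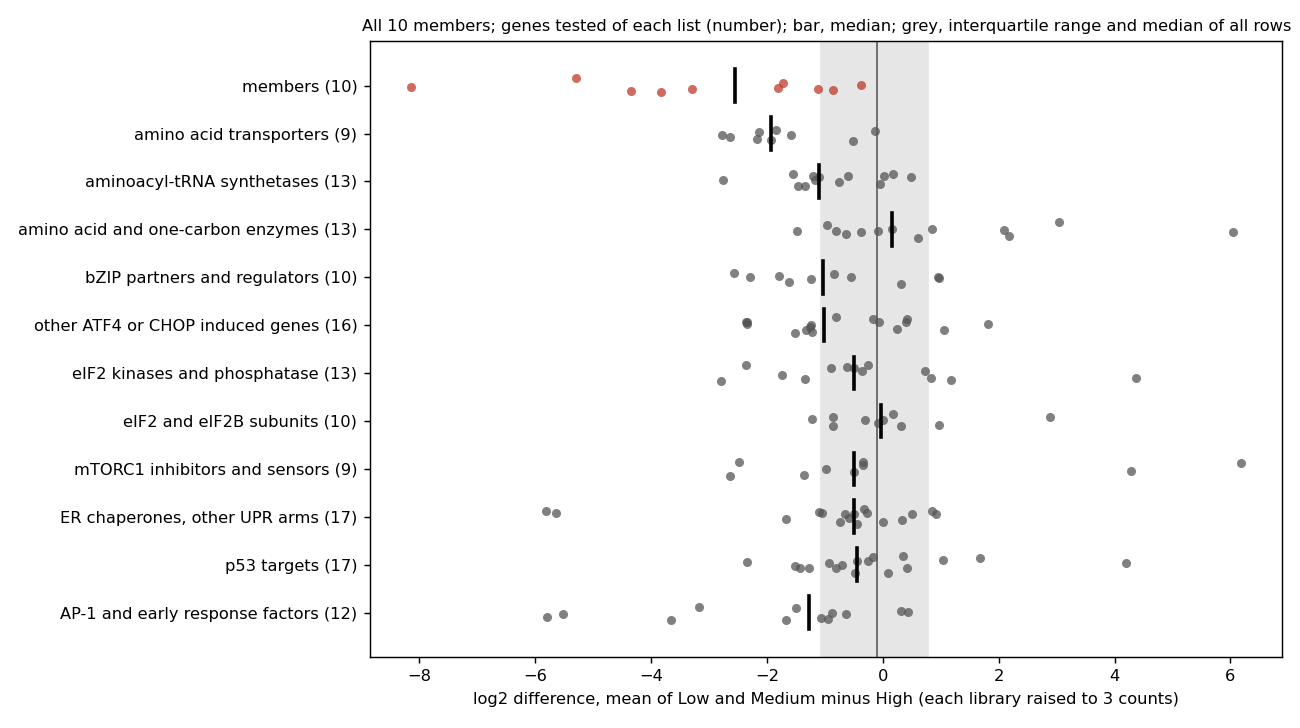
Log2 difference of the mean of “Low” and “Medium” from “High” (horizontal axis, each library raised to 3 counts) for the 10 genes (red) and for the tested genes of 11 lists (grey points), with list medians as bars and the interquartile range and median of all rows tested in grey. Medians ran from -2.56 for the 10 genes (-3.30 without Gdf15) and -1.92 for the transporters to 0.16 for the enzymes.

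Lists of 4 neighbouring programs were read in the same way. Of 17 chaperones and other genes of the unfolded protein response, which shares the kinase PERK with this program, none was called and the median was -0.50. On the lower side 3 had an unadjusted p under 0.05 in edgeR's test (217 of all 7729 rows), and 3 were lower in all 4 libraries (781 of 7729). Hspa5, the chaperone BiP, had 1081 and 1043 CPM on “High” and 746 to 1057 CPM elsewhere (log2 difference -0.27, SE 0.23, adjusted p = 0.886). The lectin chaperones Calr and Canx had log2 differences of -0.45 (SE 0.26) and -0.66 (SE 0.32). Of 17 p53 targets 1 was called lower, Cdkn1a again, with a median of -0.44, and the abundant targets Ccng1 (-0.25, SE 0.26) and Bbc3 (-0.82, SE 0.59) were not. The early response list, which holds AP-1 factors, had a median of -1.28 over 12 genes with none called, 5 with an unadjusted p under 0.05 on the lower side (217 of all 7729 rows) and 7 lower in all 4 libraries (781 of 7729). Ier3, an immediate early gene that restrains cell death, had 598 and 639 CPM on “High”, 61.1 and 348 on “Medium”, and 192 and 281 on “Low”. Ier2, another early gene, had a log2 difference of -1.06 (SE 0.36, adjusted p = 0.778). For mTORC1 and its sensors, the complex that Sesn2 and Ddit4 act on, the median was -0.50 over 9 genes with none called. Rheb, its GTPase activator, Akt1s1, an inhibitor, and Mtor, the kinase itself, had log2 differences of -1.37 (SE 0.53), -0.99 (SE 0.81) and -0.34 (SE 2.01). Of the 9 genes 7 were lower, and Nprl2 (6.18) and Nprl3 (4.29) were higher, with the largest differences of the list. Under scaling by library size alone, the median of all rows moved from -0.10 to 0.28, and the list medians of the eIF2 subunits and of the mTORC1 genes changed sign with it, to 0.37 and 0.01.

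The label of the cells was checked against markers. Of 11 neural stem and radial glia markers in the tables, Vim was the most abundant (log2 difference 0.58, SE 0.20), Sox9 had a log2 difference of 0.97 (SE 0.27), and Sox2 had 268 and 266 CPM on “High”, 598 and 554 on “Medium”, and 705 and 683 on “Low” (log2 difference 1.24, SE 0.27, adjusted p = 0.212 in edgeR's test). Of 7 tested, Hes1 (-0.82) and Fabp7 (-0.60) lay on the other side, and Hes5, Prom1, Msi1 and Hopx were at 0 in every library. The summed level of these markers was 3461 and 3197 CPM on “High”, 5478 and 5507 on “Medium”, and 4570 and 6177 on “Low”, lower in both “High” libraries than in the other 4, whereas the sum over the 10 stress genes was higher in both “High” libraries. Their part in the result was not tested.

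Of the markers of other cells, those of neurons and microglia were sparse, while those of astrocytes and the oligodendrocyte lineage had counts in every library. Neuronal markers summed to 17.9 and 12.6 CPM on “High”, 24.2 and 16.4 CPM on “Medium”, and 96.1 and 44.3 CPM on “Low”, with Gad1 the most abundant and Rbfox3, Syp, Neurod1, Neurod2, Tbr1 and Gad2 at 0, while Tubb3, a neuronal tubulin, was at 0 except for 96 and 72 counts on “Low”. Microglial markers summed to at most 37.7 CPM, with Cd68 leading and 7 of 10 at 0, among them Cx3cr1, Csf1r and Tmem119. Astrocyte markers summed to 256 to 547 CPM, led by Slc1a3, which radial glia also express, with Aqp4, Aldh1l1 and Slc1a2 at 0. The oligodendrocyte lineage, led by Olig2, stood at 351 and 439 CPM on “High” and 605 to 838 CPM elsewhere, with Sox10 and Mag at 0. Meningeal and vascular markers reached 329 CPM in “Medium” replicate 2, through Col1a1, against 0 to 137 CPM in the other libraries, and 8 of 11 were at 0. Acta2, a smooth muscle actin and the other tested marker of that list, had 57.1 and 101 CPM on “High”, 0 in both “Medium” libraries, and 0 and 20.1 CPM on “Low” (adjusted p = 0.801 in edgeR's test), in the same direction as the stress genes. Its part in the result was not tested.

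The genes whose levels followed the members most closely were sought among 6879 rows outside the list with a mean log2 CPM of at least 3. Likeness was Pearson's correlation over the 6 libraries with the mean standardized profile of the 9 tested members, which was highest on “High” (0.97 and 0.81), lowest in “Medium” replicate 1 (-1.06) and between these in “Medium” replicate 2 (0.19) and “Low” (-0.54 and -0.36). The closest were Zyx (r = 0.991), Pip5k1a (0.985), Abcf1 (0.982), LOC100360619 (0.976) and Mtfr1l (0.976). Zyx, the focal adhesion protein zyxin, had 106 and 96.4 CPM on “High”, 24.9 and 65.6 on “Medium”, and 43.0 and 39.1 on “Low”. With only 6 libraries, 140 of these rows had a correlation of at least 0.9, and all points share the same libraries and depth, so the likeness is a description.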

How the data were processed

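NSPCs were profiled by QuantSeq 3′ RNA-seq on 3 films, 2 libraries each. Reads, single-end, were mapped by the authors in Bowtie2, and bedtools coverage gave gene counts from alignments both unique and multiple, so near-identical genes are uncertain. Per the submitters' processing notes the build was rn6; versions and the annotation are not given in the sources used here, and strand was not stated. The labels name Trizol and the study's methods a Ribospin kit for RNA isolation. The authors deposited raw whole-number counts per gene, without molecular identifiers, so floors cover counting error only, and PCR duplicates remain possible. Columns of other samples numbered 0.

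Counts were filtered with filterByExpr (7729 rows left), TMM-normalized and tested with edgeR 4.0.16 (R 4.3.3) by the quasi-likelihood test, in 1 fit of the 3 group means with Benjamini-Hochberg adjustment over all rows and a threshold of 0.05. The common dispersion was 2.04, with 3 residual and 6.96 prior degrees of freedom. P-values measure only the spread between these samples. Log2 differences with an SE are fitted values. Medians, list values and differences of genes with a film at or under the floor use means of CPM with each library raised to 3 counts. Bounds between “Low” and “Medium” divide the observed mean by the floor of the other film.

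The 10 members and all gene lists were chosen with earlier results of these data known. Named are all members, and of each list the genes called in any comparison and the 3 with the highest mean log2 CPM (of marker lists for other cells only the most abundant gene is given). Eif2ak1, Eif2ak2, Eif2ak3, Eif2ak4, Nprl2, Nprl3, Slc7a5, Slc6a9, Xpot, Hes1, Fabp7, Tubb3 and Acta2, and genes listed at 0, were named after their values were seen. The genes most like the members were the 5 with the highest correlation. Alternatives were DESeq2 1.42.0, other scalings and filters, a replicate block and leaving out each library. Leave-one-out fits on the same 7729 rows and a fit of the 4 “Low” and “Medium” libraries alone were chosen after seeing the data. Directions were checked under each scaling.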

Additional observations from a re-analysis of the deposited data

How the results depend on the processing

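With “Low” and “Medium” averaged, all 10 genes were under “High” in each of the 19 alternatives run, and none of their log2 differences changed sign. For “Medium” alone, scaling by library size put Atf4 on the other side. The 19 are not separate checks, because the genes were chosen by this contrast and the alternatives reuse the same libraries. The median over the 10 genes was -2.56 with the replicate block as in the main fit. It was -2.62 both with DESeq2 and with its size factors alone. The median log2 difference over the 10 genes, -2.56, ran from -3.64 without “Medium” replicate 2 to -2.20 with library size alone, and that of all rows from -0.50 to 0.33. The numbers of genes called moved far more. With “Low” and “Medium” averaged against “High”, edgeR called 10 genes, DESeq2 351, edgeR with no filter 68 and with a mean count of at least 10 56. For “Low” against “High” the count of 4 became 291 with DESeq2, 0 with library size alone, 2 with ribosomal RNA rows removed, 34 with no filter and 30 with a mean count of at least 10. For “Medium” against “High” the count of 1 became 307 with DESeq2, 0 with library size alone, 48 with no filter and 40 with a mean count of at least 10. For “Low” against “Medium” the count of 0 became 118 with DESeq2 and 5 with no filter. Leaving out 1 library also loosened the filter, to between 8678 and 8959 rows, and gave 34 to 242, 19 to 65, 11 to 275 and 0 to 194 calls in these 4 comparisons, the highest without “Medium” replicate 2 except for “Low” against “High”, where it was without “Low” replicate 2. On the same 7729 rows as with all libraries, leaving out 1 library gave 0 to 4, 0 to 3, 0 to 1 and 0 calls. Where a film then had 1 library, it was assumed to vary like the others.

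In “Low” against “Medium”, Sesn2 was 1 of 5 rows called of 9566 with no filter, while no member was called on the 7729 rows. With the looser filter, Sesn2 was also called without “Low” replicate 2, and Ddit3, Ppp1r15a and Sesn2 without “Medium” replicate 2. Those fits left 1 library in a film and called many more of all rows too, so nothing is read from these calls. Against “High”, Sesn2 moved from -3.86 to -5.63 or lower without “Low” replicate 2, Trib3 from -4.35 to -7.09 without “Low” replicate 1, Chac1 from -5.29 to -6.70 without “Medium” replicate 2 and Atf3 from -8.14 to -7.16 without “High” replicate 1. Ddit4, at -1.12, lay at -2.10 when “Medium” replicate 2 was left out and at -0.52 when “High” replicate 1 was, Asns, at -0.86, ran from -1.52 without “Medium” replicate 2 to -0.49 with library size alone, and Atf4, at -0.38, ran from -0.84 without “Low” replicate 2 to -0.01 with library size alone. Gdf15, at -1.82, ran from -2.35 to -0.97, on 12 counts at most. Same-numbered libraries showed no shared deviation from their films (correlations 0.0066, 0.0034 and 0.0073). Because replicates disagreed for many genes, a shared culture or batch could go unseen in this check, so a pairing is not excluded. A replicate block called 57, 30 and 39 genes in the comparisons with “High” (averaged, “Low”, “Medium”) and 0 between “Low” and “Medium”. For Atf3, Chac1, Trib3 and Gdf15, 3 counts set the bound.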
